A study of Mus musculus with 35 samples.

Results

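Immune checkpoint and costimulation genes were examined in brain tissue of mice with traumatic brain injury (TBI) that received mesenchymal stromal cells (MSCs) making interleukin-4 (IL-4). The genes were chosen by name, Cd274, Pdcd1lg2, Pdcd1, Lag3, Havcr2, Ctla4, Cd80, Cd86, Ido1 and Vsir, and all 10 are among the 21203 protein-coding genes of the table. The samples came from 34 male mice of the C57BL/6NCrl strain background, 1 library per mouse. Sham mice (n = 5) had neither impact nor injection and form 1 group, with 2 mice collected at week 1 and 3 at week 3. All other mice had a closed head injury, a diffuse TBI, and several days later an injection into the left hippocampus of PBS, of unmodified MSCs (MSCs), or of the same cells carrying a synthetic mRNA for IL-4 (IL-4 MSCs). They were collected at 1 week post-injury (wpi), shortly after treatment, or at 3 wpi. Each of these 6 groups had 5 mice, except PBS at 3 wpi with 4, because the authors left out a library. Any difference from Sham therefore holds both the impact and the injection, which cannot be told apart here. The MSCs were primary cells of C57BL/6N mice, so their transcripts cannot be told from those of the host by sequence. The transfected mRNA makes IL-4 for a limited time only. The tissue is labelled left cortex and was a strip around the injection site, so RNA of all its cells was mixed. In such bulk samples, fewer cells of a type and less RNA per cell cannot be told apart.

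Immune checkpoint molecules restrain T cells and myeloid cells, and costimulatory molecules drive them. PD-L1 (Cd274) and PD-L2 (Pdcd1lg2) are the ligands of the inhibitory receptor PD-1 (Pdcd1), and CD80 and CD86 on antigen-presenting cells bind either the activating receptor CD28 or the inhibitory receptor CTLA-4. LAG-3 (Lag3), TIM-3 (Havcr2) and VISTA (Vsir) are further inhibitory receptors, the latter pair common on myeloid cells including microglia, and indoleamine 2,3-dioxygenase (Ido1) breaks down tryptophan. PD-L2 is classically induced by IL-4 on macrophages through the transcription factor STAT6, whereas PD-L1 is classically induced by interferons.

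Cd274 and Pdcd1lg2 are neighbours on chromosome 19, and their promoters are shown because both genes were higher after IL-4 MSCs. RefSeq promoters, 250 bases before to 50 after the start of the gene (GRCm38.p6), were matched for 7 of the 10 genes. Motifs searched on both strands were TTC and GAA with 4 bases of any kind between them (the type that STAT6 binds), TTC and GAA with 3 bases between them (bound by other STATs), and GAAA and GAAA with 2 bases between them (the core of interferon response elements). Of 32544 promoters of this length, 6.98% held the first, 8.33% the second and 3.45% the third. The only match in the 7 promoters was TTCCTCAGAA in that of Pdcd1lg2, first base at position -82 from the start, which is in capitals below. A match is a description of these letters and not a binding site, and the promoter of Cd274 held none of these motifs in this window.
Pdcd1lg2, chr19:29410669-29410968, plus strand: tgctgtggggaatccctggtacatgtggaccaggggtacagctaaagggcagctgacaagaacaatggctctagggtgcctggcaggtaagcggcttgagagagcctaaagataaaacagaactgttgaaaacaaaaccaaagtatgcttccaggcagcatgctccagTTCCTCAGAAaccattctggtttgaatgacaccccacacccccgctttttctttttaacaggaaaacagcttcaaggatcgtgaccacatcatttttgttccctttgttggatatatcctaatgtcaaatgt
Cd274, chr19:29367188-29367487, plus strand: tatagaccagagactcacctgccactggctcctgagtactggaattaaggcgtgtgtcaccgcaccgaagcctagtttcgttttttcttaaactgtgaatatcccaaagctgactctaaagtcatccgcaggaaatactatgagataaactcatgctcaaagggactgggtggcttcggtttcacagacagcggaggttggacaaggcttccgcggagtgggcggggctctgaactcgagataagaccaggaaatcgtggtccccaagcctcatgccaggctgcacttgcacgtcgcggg

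Libraries held between 29838423 and 41554322 estimated counts (median 32655330). Levels are given as CPM, estimated counts scaled so that library sizes are equal, and 3 counts, taken as the lowest detectable level, are 0.0722 to 0.101 CPM by library and cover counting error only. Between mice of a group, the profiles of genes with a mean of at least 10 estimated counts correlated at Pearson's r of 0.987 to 0.997 in 66 pairs. These values are across genes, which are not independent replicates, and leave out the scarcer genes. Differences are log2 fold changes with their SE from edgeR's quasi-likelihood test over 17131 genes, and a gene was called at a Benjamini-Hochberg adjusted p under 0.05. Of the 10 genes, 9 passed the filter on low counts, and Ctla4 did not. Markers of neurons were abundant in all groups, with a summed level of 4193 to 5573 CPM for 5 genes. Markers of striatum, a region below the cortex, varied widely, from 399 to 3380 CPM summed over 13 genes. Striatum levels were highest in 4 of the 5 IL-4 MSC mice at 3 wpi, and in Sham they were low in both mice of week 1 and higher in the 3 of week 3.

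**Figure D1:**
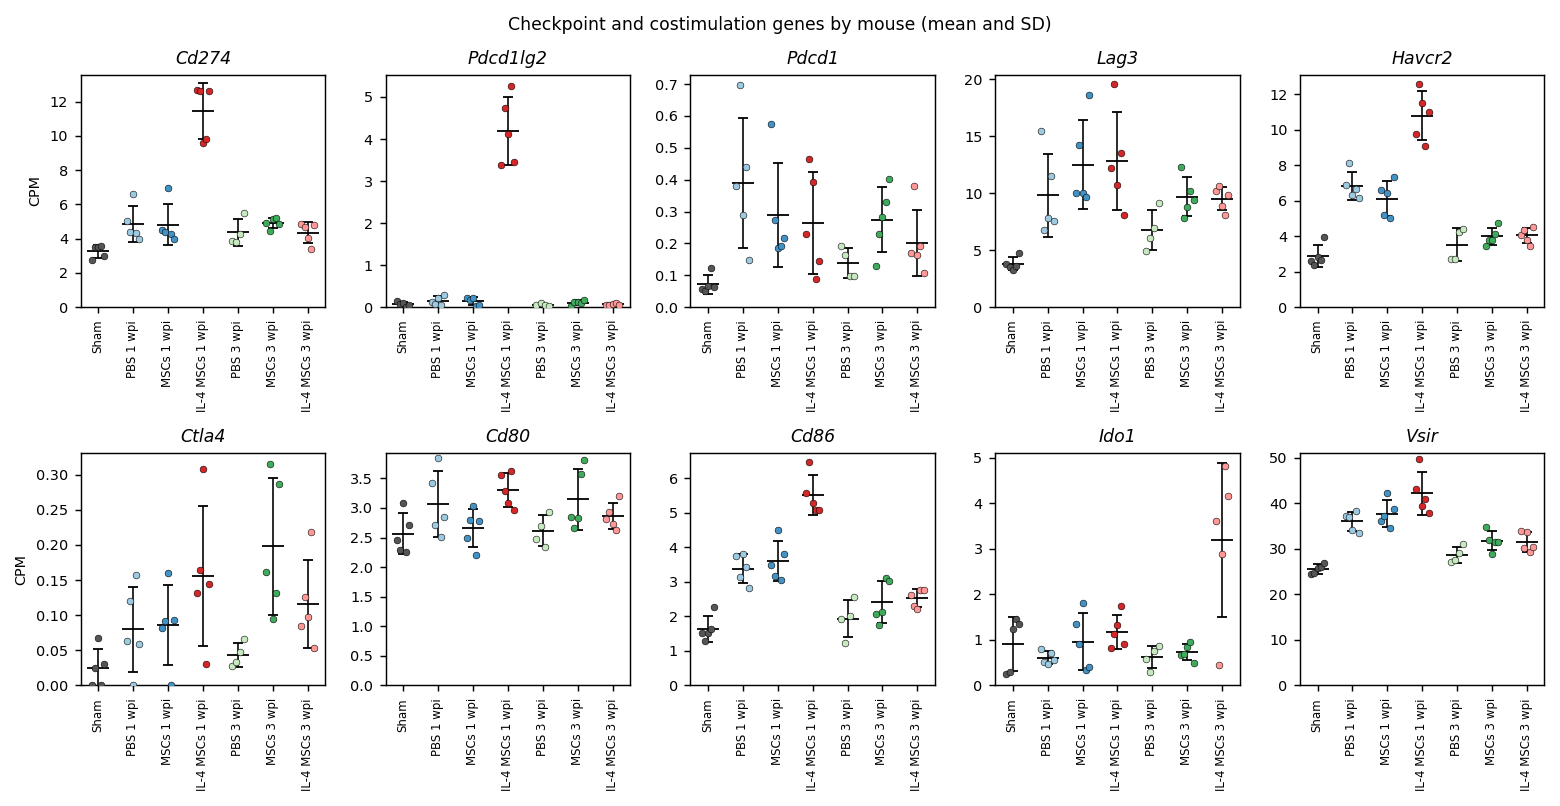
Level of each of the 10 genes in CPM (vertical axes, from 0, a scale per gene) in every mouse of the 7 groups, as points, with the group mean (line) and SD (bar). Cd274, Pdcd1lg2, Havcr2 and Cd86 were highest after IL-4 MSCs at 1 wpi, where no mouse overlapped another group, and Ido1 was high in 4 of 5 IL-4 MSC mice at 3 wpi.

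At 1 wpi the PD-1 ligands separated IL-4 MSCs from every other group. Pdcd1lg2 (ENSMUSG00000016498, chr19:29410919-29471161, plus strand, GRCm38) was at 3.39, 4.74, 4.12, 5.27 and 3.45 CPM in the 5 IL-4 MSC mice, a mean of 4.20 ± 0.814 (SD, n = 5) from 104 to 176 counts per mouse. After PBS at 1 wpi it was at 0.127, 0.0721, 0.225, 0.0628 and 0.293 CPM. After MSCs at 1 wpi it was at 0.219, 0.182, 0.214, 0.0318 and 0.0624 CPM. Sham mice had 0 to 5 counts, PBS mice 2 to 10 and MSC mice 1 to 8, so all 3 groups lay near the lowest detectable level. Pdcd1lg2 passed the filter on low counts only through IL-4 MSCs at 1 wpi, so that it had to differ there if it was tested at all. Its adjusted p-values are therefore given from the fit without this filter, which tests every gene with a count above 0 in any library. Its fold changes, which differed by at most 0.01 between both fits, are those with the filter.

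The log2 fold change of Pdcd1lg2 after IL-4 MSCs at 1 wpi was 5.71 ± 0.35 against Sham (52.5-fold, adjusted p = 3.07e-14 without the filter). Against PBS it was 4.74 ± 0.32 (26.7-fold, adjusted p = 1.83e-12) and against MSCs 4.82 ± 0.32 (28.2-fold, adjusted p = 1.48e-12). The lowest IL-4 MSC mouse was above the highest mouse of all other groups. After PBS and MSCs the log2 fold changes from Sham were 0.98 ± 0.50 (adjusted p = 0.252) and 0.90 ± 0.50 (adjusted p = 0.28), and neither was called. At 3 wpi the IL-4 MSC mice had 2 to 4 counts of Pdcd1lg2 and a mean of 0.0694 ± 0.0228 CPM (n = 5), and the gene fell by 5.84 ± 0.36 on the log2 scale from 1 to 3 wpi (adjusted p = 6.31e-14). At 3 wpi its log2 difference of IL-4 MSCs from PBS was 0.25 (95% interval -1.01 to 1.52) and from MSCs -0.64 (-1.70 to 0.43), wide intervals that these few counts do not narrow.

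Cd274 (ENSMUSG00000016496, chr19:29367455-29388095, plus strand), which starts 43.5 kb before Pdcd1lg2, was detected in all groups. It was at 2.78, 3.52, 3.52, 3.56 and 2.96 CPM in Sham. After IL-4 MSCs at 1 wpi it reached 12.7, 12.6, 9.59, 9.80 and 12.6 CPM. PBS mice at 1 wpi held 5.04, 4.37, 6.62, 4.33 and 3.99 CPM, and MSC mice 4.52, 4.37, 6.94, 4.27 and 3.96 CPM. Thus injured mice of the 3 treatments all lay above Sham, and IL-4 MSC mice lay above PBS and MSC mice without overlap. Against Sham the log2 fold change was 1.81 ± 0.15 after IL-4 MSCs (adjusted p = 8.88e-12), 0.57 ± 0.15 after PBS (adjusted p = 0.00742) and 0.56 ± 0.15 after MSCs (adjusted p = 0.0067, and 0.0552 without MSC replicate 2). IL-4 MSCs exceeded PBS by 1.24 ± 0.14 (2.36-fold, adjusted p = 7.29e-08) and MSCs by 1.25 ± 0.14 (2.38-fold, adjusted p = 9.23e-08).

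Per transcript length, Pdcd1lg2 was the rarer ligand in Sham, with 0.104 ± 0.0716 TPM (a level scaled for transcript length) against 1.89 ± 0.205 TPM of Cd274 (n = 5). After IL-4 MSCs at 1 wpi the TPM levels of the 2 ligands were close, 5.90 ± 1.11 for Pdcd1lg2 and 6.81 ± 0.955 for Cd274 (n = 5). Cd274 returned to 4.35 ± 0.624 CPM (n = 5) after IL-4 MSCs at 3 wpi, a fall of 1.40 ± 0.14 on the log2 scale from 1 wpi (adjusted p = 2.33e-09). It then differed from PBS by 0.00 (95% interval -0.31 to 0.30). After MSCs at 3 wpi, Cd274 was at 4.92 ± 0.31 CPM (n = 5) and 0.59 ± 0.15 above Sham on the log2 scale (adjusted p = 0.0386). That call was lost in 9 of the 10 fits that left out 1 mouse, with adjusted p up to 0.141. After PBS at 3 wpi it was at 4.37 ± 0.79 CPM (n = 4), 0.42 ± 0.16 above Sham, and not called (adjusted p = 0.78).

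Whether the difference between treatments itself changed with time was tested as an interaction. For IL-4 MSCs against PBS, Pdcd1lg2 differed more at 1 wpi than at 3 wpi by 4.49 ± 0.86 on the log2 scale (adjusted p = 0.00135 without the filter) and Cd274 by 1.24 ± 0.21 (adjusted p = 0.000307). Of the other 8 genes only Cd274 was called, where 3.93% of all genes were called in that direction. For IL-4 MSCs against MSCs, Pdcd1lg2 (5.45 ± 0.67, adjusted p = 2.15e-06 without the filter), Cd274 (1.43 ± 0.20, adjusted p = 1.72e-05) and Havcr2 (0.79 ± 0.20, adjusted p = 0.00973) were called, where 5.96% of all genes were called in that direction. For MSCs against PBS, none of the 9 genes and 0% of all genes were called, with 572 genes at an unadjusted p under 0.05.

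Genes around Pdcd1lg2 were read for comparison. Of the 8 other tested genes, besides Cd274, that lie at least in part within 300 kb of the ends of Pdcd1lg2, Jak2 (a kinase of cytokine receptors, 0.47 ± 0.07, adjusted p = 2.75e-06) and Plgrkt (0.18 ± 0.05, adjusted p = 0.0168) exceeded PBS after IL-4 MSCs at 1 wpi. Ermp1 was lower by a log2 fold change of -0.14 ± 0.03 (adjusted p = 0.00147). Ric1, the next gene after Pdcd1lg2, differed by 0.01 ± 0.04 (adjusted p = 0.861). Among all genes, 11.2% were called higher in this comparison. The differences of both ligands were larger than those of any other gene tested in this window. The window was set around Pdcd1lg2, which passed the filter on low counts only through IL-4 MSCs at 1 wpi. Its own rank in the window is therefore a description only.

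**Figure D2:**
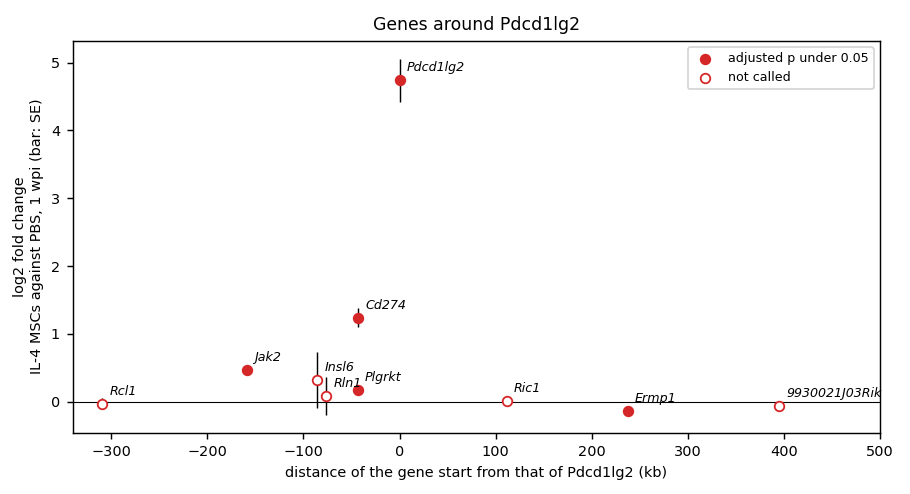
Log2 fold change of IL-4 MSCs against PBS at 1 wpi (vertical axis, bar: SE) of the tested genes around Pdcd1lg2 by distance of their start from its start in kb (horizontal axis). Filled points are genes called at an adjusted p under 0.05. Pdcd1lg2 (4.74) and Cd274 (1.24) stand above all others, of which Jak2 is the highest at 0.47.

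Markers of other cells moved with the ligands at 1 wpi. The macrophage and monocyte list (11 genes, among them Mrc1, Arg1 and Ccr2) summed to 696 to 1054 CPM after IL-4 MSCs, 162 to 242 after PBS, 218 to 306 after MSCs and 76.2 to 138 in Sham, and 10 of 11 were higher after IL-4 MSCs than after PBS, where 11.2% of all genes were. One listed gene, Ms4a8a, was at or under 3 counts in all mice of the other groups. It passed the filter on low counts only through IL-4 MSCs at 1 wpi, so its difference there is no evidence of its own. Mrc1 of the same list encodes CD206, which the authors describe as strongly stimulated by IL-4 on macrophages. The sum of the macrophage and monocyte list thus cannot tell more of these cells from more RNA per cell. The sum over the list of IL-4 response genes was 452 to 644 CPM after IL-4 MSCs, where PBS had 70.3 to 97.5 and MSCs 78.4 to 107. The list of interferon-gamma response genes summed to 160 to 251 CPM after IL-4 MSCs, 78.8 to 105 after PBS and 95.8 to 126 after MSCs. Endothelium markers (5 genes) summed to 231 to 292 CPM after IL-4 MSCs, 149 to 178 after PBS, 163 to 208 after MSCs and 174 to 194 in Sham. All 5 were called higher after IL-4 MSCs against PBS (11.2% of all genes) and MSCs (7.66%). The same 5 were called in both tests of the change with time (3.93% of all genes against PBS and 5.96% against MSCs). NK cell markers (5 genes, 4 tested) summed to 2.5 to 7.73 CPM after IL-4 MSCs, 1.2 to 1.68 after PBS and 1.4 to 1.91 after MSCs, with 2 called higher against each (11.2% and 7.66% of all genes). Of these markers, Ncr1 was at or under 3 counts in all mice of the other groups, and Gzma and Klrb1c in all Sham mice. Some NK markers may thus have passed the filter on low counts only through IL-4 MSCs at 1 wpi. The part of these lists in the levels of the ligands was not tested. The summed level of the MSC list (12 genes) was also higher after either cell treatment without overlap with PBS, with 798 to 929 CPM after IL-4 MSCs and 736 to 1181 after MSCs against 666 to 723 after PBS. Its Hox genes Hoxa9, Hoxa10 and Hoxc10 were at or under 3 counts in all Sham, PBS and 3 wpi mice. The summed levels of this list overlapped between the 2 cell treatments, and 2 of the 12 genes were called higher after IL-4 MSCs than after MSCs (7.66% of all genes). Sham mice, which received no cells, held 643 to 689 CPM of this list, so its sum is not a measure of the injected cells alone. The part of the injected cells in the levels of the ligands was not tested. Over the 34 mice, the genes most like Pdcd1lg2 in log2 CPM were Mrc1 and Maf (both Pearson's r = 0.96) and Srgn (0.95). Those most like Cd274 were Tapbp, Tfec and H2-Q4 (all 0.93). These correlations share the same libraries and group differences and are descriptions.

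CD86 and CD80, the ligands of CD28 and CTLA-4, behaved differently from each other. Cd86 (ENSMUSG00000022901, chr16:36603869-36666081, minus strand) was at 1.52, 1.28, 1.51, 1.64 and 2.28 CPM in Sham. PBS mice at 1 wpi held 3.74, 3.15, 3.79, 3.42 and 2.81 CPM, MSC mice 3.50, 3.16, 4.51, 3.06 and 3.81 CPM, and IL-4 MSC mice 5.58, 6.47, 5.27, 5.09 and 5.08 CPM. Injured groups lay above Sham, and IL-4 MSC mice above both other treatments, without overlap. Against Sham, Cd86 was higher by 1.04 ± 0.17 after PBS (adjusted p = 3.45e-05), 1.14 ± 0.17 after MSCs (adjusted p = 6.37e-06) and 1.74 ± 0.16 after IL-4 MSCs (adjusted p = 2.99e-10) on the log2 scale. IL-4 MSCs exceeded PBS by 0.70 ± 0.16 (1.63-fold, adjusted p = 0.00136) and MSCs by 0.61 ± 0.15 (1.52-fold, adjusted p = 0.00804). From 1 to 3 wpi Cd86 fell by 0.80 ± 0.18 after PBS (adjusted p = 0.00344), 0.58 ± 0.16 after MSCs (adjusted p = 0.0243) and 1.12 ± 0.16 after IL-4 MSCs (adjusted p = 1.25e-06) on the log2 scale. The fall after MSCs was not called without any of MSC replicate 2 at 1 wpi or replicates 0, 1 or 2 at 3 wpi, with adjusted p between 0.0613 and 0.11.

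Cd80 (ENSMUSG00000075122, chr16:38455561-38496335, plus strand) stayed between group means of 2.56 ± 0.345 CPM in Sham and 3.30 ± 0.289 CPM after IL-4 MSCs at 1 wpi (n = 5 each), and every pair of groups next to each other in order overlapped. It was higher than Sham after IL-4 MSCs at 1 wpi by 0.37 ± 0.12 on the log2 scale (adjusted p = 0.0145), with overlap of the mice, and was called in no other comparison. Against PBS the difference was 0.11 ± 0.12 (adjusted p = 0.608) and against MSCs 0.31 ± 0.12 (adjusted p = 0.114). In TPM, the 2 ligands had similar levels in Sham, 1.74 ± 0.201 for Cd80 and 1.40 ± 0.346 for Cd86. After IL-4 MSCs at 1 wpi Cd86 was at 4.78 ± 0.455 TPM and Cd80 at 2.4 ± 0.26 TPM (n = 5 each). The genes most like Cd86 were Nckap1l, Man2b1 and Inpp5d (all r = 0.95), while for Cd80 the highest r was 0.71, with C5ar2.

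Havcr2, the gene of TIM-3 (ENSMUSG00000020399, chr11:46454935-46481255, plus strand), followed the pattern of Cd86. It was at 2.58, 2.39, 2.82, 2.66 and 3.98 CPM in Sham, where replicate 4 was far above the others. PBS mice at 1 wpi held 6.88, 8.12, 6.33, 6.66 and 6.16 CPM, MSC mice 6.62, 5.22, 6.46, 5.00 and 7.33 CPM, and IL-4 MSC mice 9.76, 12.6, 11.5, 9.11 and 11.0 CPM. No mouse of the 3 groups overlapped Sham, and IL-4 MSC mice did not overlap PBS or MSCs. Log2 fold changes from Sham were 1.25 ± 0.14 after PBS (adjusted p = 2.56e-07), 1.09 ± 0.14 after MSCs (adjusted p = 1.44e-06) and 1.91 ± 0.14 after IL-4 MSCs (adjusted p = 2.33e-12). IL-4 MSCs exceeded PBS by 0.66 ± 0.13 (1.58-fold, adjusted p = 0.000585) and MSCs by 0.82 ± 0.14 (1.76-fold, adjusted p = 5.1e-05). Between 1 and 3 wpi Havcr2 fell by 0.95 ± 0.15 after PBS (adjusted p = 9.39e-05), 0.62 ± 0.14 after MSCs (adjusted p = 0.00504) and 1.41 ± 0.14 after IL-4 MSCs (adjusted p = 1.35e-09). Its nearest genes by likeness were Inpp5d, Laptm5 and Nckap1l (all r = 0.97), which are expressed in blood-derived cells and microglia.

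Vsir, the gene of VISTA (ENSMUSG00000020101, chr10:60346851-60372684, plus strand), had the highest TPM of the 10 genes in all groups, from 14 ± 1.12 TPM in Sham to 25.4 ± 3.03 TPM after IL-4 MSCs at 1 wpi (n = 5 each). Sham mice held 24.4, 24.6, 25.7, 26.1 and 26.9 CPM. At 1 wpi PBS mice ranged from 33.5 to 38.4 CPM, MSC mice from 34.5 to 42.2 and IL-4 MSC mice from 37.8 to 49.8. All 15 injured mice were above all Sham mice, but treatments overlapped. Log2 fold changes from Sham were 0.50 ± 0.06 after PBS (adjusted p = 1.65e-06), 0.56 ± 0.06 after MSCs (adjusted p = 1.39e-07) and 0.73 ± 0.06 after IL-4 MSCs (adjusted p = 8.5e-11). IL-4 MSCs exceeded PBS by 0.23 ± 0.06 (1.17-fold, adjusted p = 0.0105), and against MSCs the difference of 0.16 ± 0.06 was not called (adjusted p = 0.126, and 0.0414 and 0.0328 without MSC replicate 2 or IL-4 MSC replicate 4). By 3 wpi Vsir had fallen by 0.33 ± 0.07 after PBS (adjusted p = 0.00192), 0.25 ± 0.06 after MSCs (adjusted p = 0.0141) and 0.43 ± 0.06 after IL-4 MSCs (adjusted p = 3.32e-06). The fall after MSCs was not called without replicate 2 of either MSC group, with adjusted p of 0.0756 and 0.0569.

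Markers common to leukocytes moved with Cd86, Havcr2 and Vsir. The markers Ptprc, Cd52, Laptm5 and Coro1a summed to 95.9 to 112 CPM in Sham, 129 to 147 after PBS, 130 to 163 after MSCs and 174 to 203 after IL-4 MSCs at 1 wpi. The microglia list (8 genes) summed to 232 to 293 CPM in Sham. At 1 wpi it summed to 378 to 504 CPM with PBS, 402 to 458 with MSCs and 378 to 476 with IL-4 MSCs. All 3 treatments thus lay above Sham and overlapped each other. With the mean log2 CPM of the 4 leukocyte markers as a covariate, added after the data were seen, the difference of IL-4 MSCs from PBS at 1 wpi was 0.92 for Cd274 (adjusted p = 0.000422) and 4.86 for Pdcd1lg2, which entered this fit only through IL-4 MSCs at 1 wpi. In that fit it was 0.23 for Havcr2 (adjusted p = 0.411), 0.27 for Cd86 (adjusted p = 0.428) and 0.12 for Vsir (adjusted p = 0.47). The scores of the 2 groups did not overlap (4.20 to 4.51 after PBS and 4.90 to 5.18 after IL-4 MSCs). The covariate and the treatment are therefore told apart only through the other mice of the fit. The score also holds Laptm5, which is among the genes most like Havcr2 (r = 0.97) and Vsir (0.93). This fit thus cannot tell a change of these genes from a change of the score. No injured mouse at 1 wpi had a leukocyte score within the range of Sham (2.93 to 3.61), and with the covariate 0 of the 9 genes were called after PBS or MSCs against Sham and, apart from Pdcd1lg2, 0 after IL-4 MSCs.

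PD-1 (Pdcd1, ENSMUSG00000026285, chr1:94038305-94052553, minus strand) and LAG-3 (Lag3, ENSMUSG00000030124, chr6:124904361-124911705, minus strand) are receptors best known on T cells. Pdcd1 was scarce, with 2 to 4 counts per Sham mouse and at most 29 in any mouse. Sham mice held 0.0573, 0.0492, 0.0671, 0.124 and 0.0617 CPM, of which replicate 3 stood apart. At 1 wpi PBS mice held 0.380, 0.697, 0.289, 0.440 and 0.147 CPM, MSC mice 0.575, 0.273, 0.187, 0.191 and 0.218, and IL-4 MSC mice 0.228, 0.466, 0.392, 0.0899 and 0.145. PBS and MSC mice lay above all Sham mice, and IL-4 MSC mice overlapped Sham. Log2 fold changes from Sham were 2.43 ± 0.49 after PBS (adjusted p = 0.000718), 1.99 ± 0.52 after MSCs (adjusted p = 0.00598) and 1.86 ± 0.52 after IL-4 MSCs (adjusted p = 0.00497). Unlike its ligands, Pdcd1 was not called after IL-4 MSCs against PBS (-0.56 ± 0.39, adjusted p = 0.372) or MSCs (-0.12 ± 0.41, adjusted p = 0.92), with 95% intervals of -1.34 to 0.21 and -0.93 to 0.68.

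Lag3 was at 3.81, 3.49, 3.29, 3.65 and 4.79 CPM in Sham. PBS mice at 1 wpi held 15.5, 6.80, 7.84, 11.5 and 7.53 CPM, MSC mice 10, 14.2, 9.98, 9.71 and 18.6 CPM, and IL-4 MSC mice 12.2, 19.6, 10.7, 13.5 and 8.13 CPM. All 15 exceeded Sham, and the 3 treatments overlapped. Log2 fold changes from Sham were 1.37 ± 0.23 (2.58-fold, adjusted p = 7.88e-05), 1.72 ± 0.23 (3.28-fold, adjusted p = 1.81e-06) and 1.75 ± 0.23 (3.37-fold, adjusted p = 2.58e-07) in that order. IL-4 MSCs differed from PBS by 0.39 ± 0.22 (adjusted p = 0.24) and from MSCs by 0.04 ± 0.21 (95% interval -0.38 to 0.46, adjusted p = 0.954).

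Lag3 was called above Sham at 3 wpi after both cell treatments. MSC mice at 3 wpi held 12.3, 7.82, 8.83, 10.2 and 9.37 CPM, and IL-4 MSC mice 10.2, 10.6, 8.91, 8.05 and 9.84 CPM. Both groups lay above all Sham mice, by 1.35 ± 0.23 (adjusted p = 0.00112) and 1.32 ± 0.23 (adjusted p = 0.00169) on the log2 scale. PBS mice at 3 wpi held 4.96, 6.09, 6.92 and 9.14 CPM, also above all Sham mice, and their difference of 0.83 ± 0.25 was not called (adjusted p = 0.611). Neither cell treatment differed from PBS at 3 wpi by a called amount, and Lag3 was called from 1 to 3 wpi in no treatment. Genes most like Lag3 were Cst7 (r = 0.89), C4b and Itgax (both 0.86), of which Cst7 and Itgax are known from activated microglia.

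**Figure D3:**
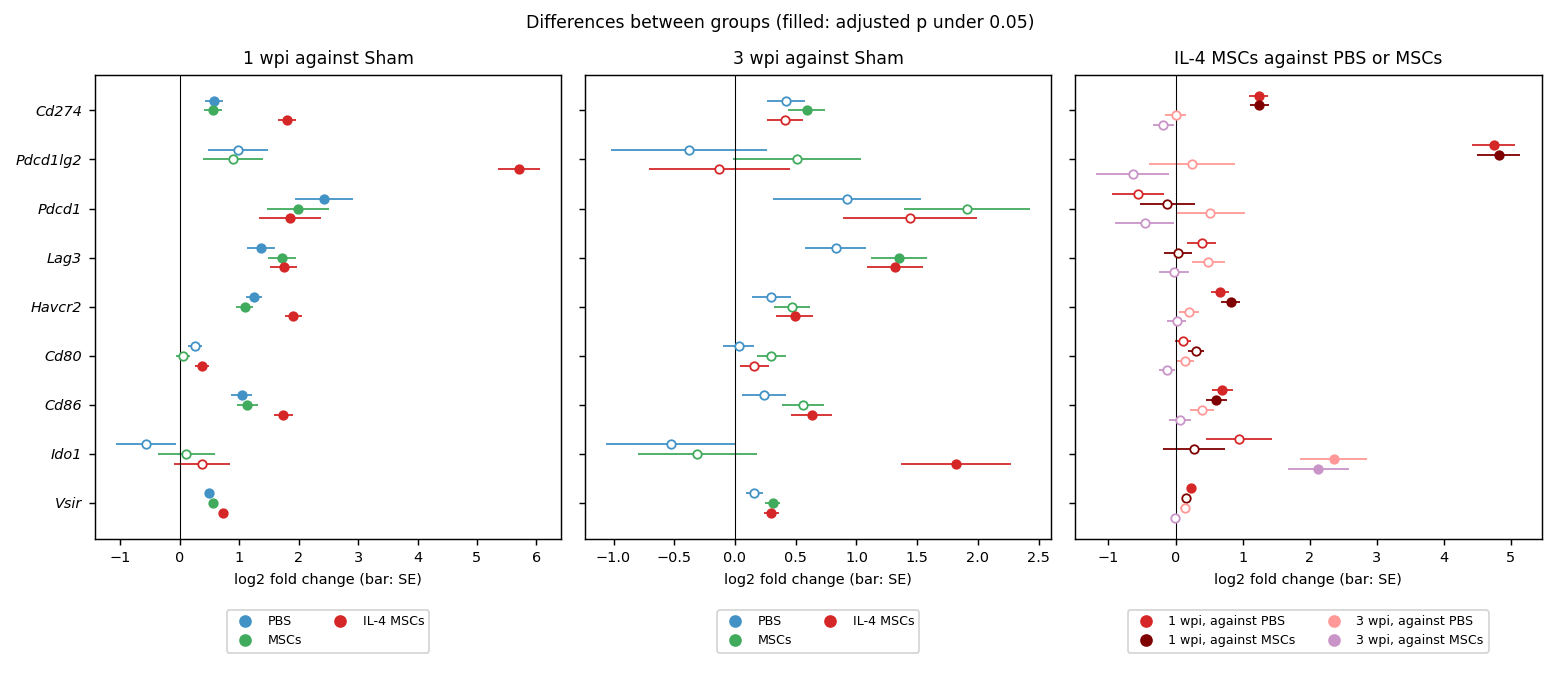
Log2 fold changes (horizontal axes, bars: SE) of the 9 tested genes against Sham at 1 wpi (left) and 3 wpi (middle) and of IL-4 MSCs against PBS or MSCs (right), with filled points for an adjusted p under 0.05. Against PBS and MSCs at 1 wpi, Pdcd1lg2 (4.74 and 4.82) and Cd274 (1.24 and 1.25) lie farthest from 0, and at 3 wpi Ido1 is the only filled point.

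Ctla4 (ENSMUSG00000026011, chr1:60887000-60915832, plus strand), a receptor of activated and regulatory T cells, was at 0 to 11 counts per mouse and did not pass the filter, so no fold change is given. It had 0 to 2 counts in Sham mice, 0 to 5 after PBS, 0 to 6 after MSCs and 1 to 11 after IL-4 MSCs at 1 wpi. At 3 wpi it had 1 to 2 counts after PBS, 3 to 11 after MSCs and 2 to 8 after IL-4 MSCs. MSC mice at 3 wpi held 0.162, 0.315, 0.0943, 0.132 and 0.286 CPM, above all Sham mice (0 to 0.0671 CPM). The two-sided exact permutation test of the mean CPM gave p = 0.00794, the smallest that 5 mice against 5 can give, and 0.0794 after adjustment over 15 comparisons, none of which had an adjusted p under 0.05. T cell markers (14 genes) summed to 16.9 to 21.8 CPM after MSCs and 18.4 to 33.2 after IL-4 MSCs at 3 wpi against 10.8 to 16.7 in Sham, with 8 and 7 of the 14 called higher (1.11% and 2.76% of all genes). Although the sum reached higher after IL-4 MSCs than after MSCs at 3 wpi, the median log2 fold change of the 14 between them was -0.24. At 1 wpi, 1 of them was called higher (8.73% of all genes) and 1 lower (5.03%) after PBS, 1 higher after MSCs (11.0%) and 7 higher after IL-4 MSCs (18.4%), so that the counts after PBS and MSCs were near the share of all genes. Cd3g, Cd2 and Trbc1 were at or under 3 counts in all Sham mice. The part of T cells in Pdcd1, Lag3 and Ctla4 was not tested.

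Ido1 (ENSMUSG00000031551, chr8:24584136-24597009, minus strand) was the only one of the 9 genes called between treatments at 3 wpi. IL-4 MSC mice held 3.61, 0.443, 2.89, 4.83 and 4.16 CPM, PBS mice 0.579, 0.295, 0.747 and 0.858 CPM, and MSC mice 0.679, 0.688, 0.849, 0.960 and 0.487 CPM. In 4 of the 5 IL-4 MSC mice Ido1 was above every mouse of the other groups at 3 wpi, and the remaining one lay within them. IL-4 MSCs exceeded PBS by 2.36 ± 0.50 (5.12-fold, adjusted p = 0.00924), MSCs by 2.13 ± 0.46 (4.38-fold, adjusted p = 0.00901) and Sham by 1.82 ± 0.45 (adjusted p = 0.0178) on the log2 scale. From 1 to 3 wpi it rose by 1.44 ± 0.43 after IL-4 MSCs (adjusted p = 0.0102). The call against PBS was lost without PBS replicate 0 (2.31, adjusted p = 0.0536) and that against MSCs without IL-4 MSC replicate 3 (1.93, adjusted p = 0.0524). With only the 2 groups of a comparison fitted, neither was called (adjusted p = 0.186 and 0.209).

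The level of Ido1 went with that of striatum markers. Among the genes most like it over the 34 mice were Ppp1r1b and Rgs9, both markers of striatum (both r = 0.97). The striatum score, the mean log2 CPM of 13 markers, was 4.56 to 7.29 after IL-4 MSCs at 3 wpi (median 6.57), 3.83 to 5.12 after PBS and 3.85 to 5.58 after MSCs. The IL-4 MSC mouse with 0.443 CPM of Ido1 was the one with the score of 4.56. Sham mice of week 1 had 0.258 and 0.295 CPM of Ido1 and a score of 3.67 each, and those of week 3 had 1.24 to 1.45 CPM and scores of 5.51 to 5.78. In a fit with this striatum score added, the difference of IL-4 MSCs at 3 wpi was 0.10 from PBS (adjusted p = 0.982), 0.12 from MSCs (adjusted p = 0.908) and 0.21 from Sham (adjusted p = 0.777), and that from 1 to 3 wpi was 0.02 (adjusted p = 0.965). However, 4 of the 5 IL-4 MSC mice at 3 wpi scored 6.51 to 7.29, above every mouse of the other groups (highest 5.78). The score and the treatment are therefore hardly told apart in this fit, and the part of striatum tissue in Ido1 was not tested. Against the Sham mice of the same week only, the differences of IL-4 MSCs were 1.24 at 3 wpi (adjusted p = 0.184) and 2.08 at 1 wpi (adjusted p = 0.0144), where all Sham mice gave 0.38 ± 0.47 at 1 wpi (adjusted p = 0.575). At 1 wpi IL-4 MSC mice held 0.816 to 1.74 CPM and PBS mice 0.482 to 0.792, a difference of 0.95 ± 0.49 (adjusted p = 0.194), which was called at 0.96 ± 0.24 when the fit held these 2 groups alone (adjusted p = 0.0128). Adding the striatum score gave -0.03 (adjusted p = 0.975). The striatum scores of these mice were 4.68 to 5.72 and 4.09 to 4.70.

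**Figure D4:**
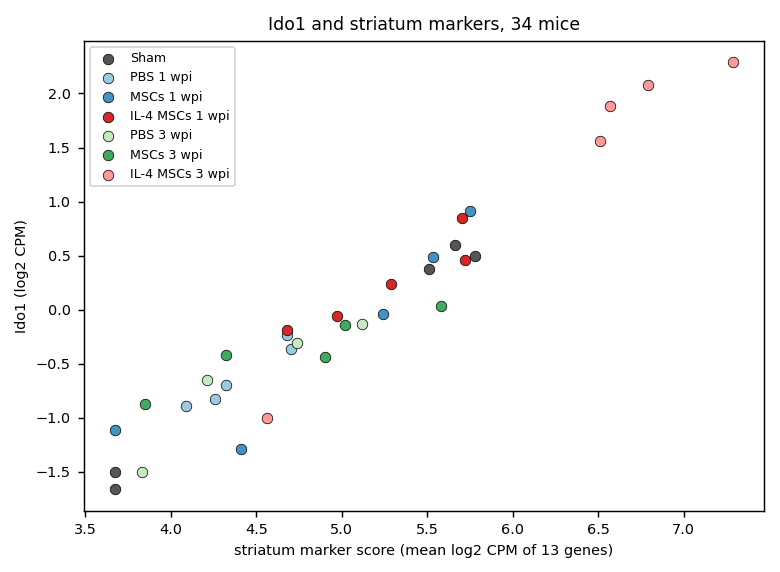
Level of Ido1 in log2 CPM (vertical axis) and the striatum score, the mean log2 CPM of 13 markers (horizontal axis), in the 34 mice, coloured by group. Mice of all groups lie along 1 band, with 4 of the 5 IL-4 MSC mice at 3 wpi at its upper end and the fifth, with a score of 4.56, among the others.

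Counted over the 9 tested genes, all called differences from Sham were upward. At 1 wpi 6 of 9 were called higher after PBS (8.73% of all genes were), 6 after MSCs (11.0%) and 8 after IL-4 MSCs (18.4%). At 3 wpi 0 of 9 were called after PBS (0.0292% of all genes, with 914 at an unadjusted p under 0.05), 3 after MSCs (Cd274, Lag3 and Vsir, 1.11% of all genes called higher) and 5 after IL-4 MSCs (Lag3, Havcr2, Cd86, Ido1 and Vsir, 2.76%). Called higher after IL-4 MSCs at 1 wpi were 5 of 9 against PBS (11.2% of all genes) and 4 of 9 against MSCs (7.66%), and at 3 wpi 1 of 9 against PBS (2.17%) and 1 against MSCs (2.29%). Between MSCs and PBS 0 of 9 were called at 1 wpi (0.123% of all genes, with 774 at an unadjusted p under 0.05) and 0 at 3 wpi (0.0817%, with 981). From 1 to 3 wpi, 3 fell after PBS (4.90% of all genes called lower), 3 after MSCs (4.93%) and 5 after IL-4 MSCs (16.6%), and 1, Ido1, rose after IL-4 MSCs (16.4% called higher). Pdcd1lg2 is among those called after IL-4 MSCs at 1 wpi, against Sham, PBS and MSCs, and among those that fell after IL-4 MSCs, and had to be by the filter described above.

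At 3 wpi the remaining calls against Sham were small in size. After IL-4 MSCs Havcr2 was at 4.05 ± 0.429 CPM and 0.49 ± 0.15 above Sham (adjusted p = 0.0499), and Cd86 was at 2.53 ± 0.257 CPM and 0.63 ± 0.17 above it (adjusted p = 0.0309, n = 5). Of the 10 fits that left out 1 mouse, 9 lost the call of Havcr2 (adjusted p up to 0.163), 6 that of Cd86 (up to 0.119) and 4 that of Ido1 (up to 0.0661). Vsir was at 31.4 ± 2.18 CPM after IL-4 MSCs (0.30 ± 0.06, adjusted p = 0.00712) and at 31.7 ± 2.12 CPM after MSCs (0.31 ± 0.06, adjusted p = 0.0083), with no overlap with Sham. Against the 3 Sham mice of week 3 only, Vsir was 0.26 higher after IL-4 MSCs (adjusted p = 0.09) and 0.27 after MSCs (adjusted p = 0.117), Havcr2 0.36 (adjusted p = 0.331) and Cd86 0.48 higher after IL-4 MSCs (adjusted p = 0.246). With the striatum score added, the calls after IL-4 MSCs were lost too, with 0.25 for Vsir (adjusted p = 0.119), 0.44 for Havcr2 (adjusted p = 0.296) and 0.43 for Cd86 (adjusted p = 0.363). As for Ido1, that score and this treatment are hardly told apart. With the Sham mice of week 3 alone Lag3 remained called after IL-4 MSCs (1.28, adjusted p = 0.0224). After MSCs at 3 wpi, Havcr2 (0.47 ± 0.15, adjusted p = 0.126) and Cd86 (0.56 ± 0.17, adjusted p = 0.115) were not called, but were without Sham replicate 4, the Sham mouse with the highest values of both (adjusted p = 0.0181 and 0.0248). Pdcd1 was 1.91 ± 0.52 above Sham after MSCs at 3 wpi (adjusted p = 0.0642), and 1.97 with the replicate number of the labels as a block (adjusted p = 0.0479).

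Further receptors and ligands of costimulation were read from a list of 39 other genes, of which 32 were tested. Against PBS, IL-4 MSCs at 1 wpi had 13 of 32 higher (11.2% of all genes) and 0 lower, with a median log2 fold change of 0.28 over the list and -0.004 over all genes. Those with the largest changes were Cd200r1 (an inhibitory receptor of myeloid cells), Cd244a, Tnfrsf9 (the costimulatory receptor 4-1BB), Cd28, Lgals9 (galectin-9, a ligand of TIM-3) and Cd226. Cd200r1 rose from 0.817 ± 0.278 CPM after PBS to 3.35 ± 0.624 CPM after IL-4 MSCs (n = 5 each), a log2 fold change of 2.03 ± 0.23 (adjusted p = 5.12e-08). Lgals9 was at 4.53 ± 0.80 CPM in Sham, 10.1 ± 1.22 after PBS, 10.5 ± 0.756 after MSCs and 20.3 ± 2.33 after IL-4 MSCs, so that the ligand and its receptor gene Havcr2 both stood highest after IL-4 MSCs, and it exceeded PBS by 1.01 ± 0.12 (adjusted p = 1.11e-07). Cd28, the receptor of CD80 and CD86, was 1.14 ± 0.33 higher at a low level of 0.759 ± 0.126 CPM (adjusted p = 0.0155). The log2 fold changes of Cd244a, Tnfrsf9 and Cd226 were 1.60 ± 0.52, 1.35 ± 0.24 and 0.94 ± 0.32 (adjusted p = 0.0318, 0.000119 and 0.0367). In leave-one-out fits of this list, added after the data were seen, the call of Cd226 was lost in 6 of 10 fits (adjusted p up to 0.0993), that of Cd244a in 5 (up to 0.0851) and that of Cd28 without PBS replicate 4 (0.0545). Those of Cd40, Nectin2 and Ceacam1 were lost in 4, 2 and 1 of 10, and the other 7 kept theirs in all 10.

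Against MSCs at 1 wpi, 5 of the 32 were higher after IL-4 MSCs (Cd200r1, Lgals9, Ptpn6, Entpd1 and Pvr, where 7.66% of all genes were) and 0 lower. Between MSCs and PBS 0 were called at either time, where 0.123% of all genes were at 1 wpi and 0.0817% at 3 wpi. Against Sham at 1 wpi, 5 were higher (8.73% of all genes) and 1 lower (5.03%) after PBS, 5 higher (11.0%) and 1 lower (6.89%) after MSCs, and 16 higher (18.4%) and 1 lower (18.5%) after IL-4 MSCs. Over time 14 fell after IL-4 MSCs (16.6% of all genes), 3 after PBS (4.90%) and 1 after MSCs (4.93%). In no treatment did any rise, where 16.4% of all genes rose after IL-4 MSCs. At 3 wpi, IL-4 MSCs exceeded PBS in 3 of the 32, where 2.17% of all genes were higher. These were Adora2a (2.65 ± 0.71, adjusted p = 0.0358), which is also on the striatum list, Icos (1.71 ± 0.46, adjusted p = 0.036), a T cell costimulatory receptor, and Nt5e (0.73 ± 0.18, adjusted p = 0.0213), which is also on the MSC list. Icos was scarce, with means of 0.305 and 0.315 CPM after IL-4 MSCs at 1 and 3 wpi and at most 0.178 CPM in the other groups. It may have passed the filter on low counts only through the IL-4 MSC groups, so its calls there are weak evidence. Of the 9 fits that left out 1 of these mice, 7 lost the call of Adora2a (adjusted p up to 0.143), 6 that of Icos (up to 0.13) and 5 that of Nt5e (up to 0.107). The MSC list summed to 627 to 676 CPM after IL-4 MSCs at 3 wpi, against 643 to 689 in Sham. In these fits Nt5e ranged from 0.60 without IL-4 MSC replicate 3 (striatum score 7.29) to 0.87 without replicate 1 (4.56). The part of injected cells or of striatum tissue in Nt5e was not tested.

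Against Sham at 3 wpi, 3 of the 32 were higher after MSCs (1.11% of all genes) and 3 after IL-4 MSCs (2.76%), and 0 were called after PBS (0.0292% of all genes). Ptpn6, a phosphatase that acts downstream of inhibitory receptors, was higher after both cell treatments, by 0.87 ± 0.17 after MSCs (adjusted p = 0.00472) and 0.77 ± 0.17 after IL-4 MSCs (adjusted p = 0.00765), and kept both calls without any 1 mouse. After IL-4 MSCs Icos (1.99 ± 0.45, adjusted p = 0.00954) and Nt5e (0.61 ± 0.17, adjusted p = 0.0354) were also called, and the call of Nt5e was lost in 7 of 10 fits without 1 mouse (adjusted p up to 0.143). The limit given above for Icos, a low level and the filter on low counts, holds for this call too. After MSCs Cd28 was called (1.44 ± 0.37, adjusted p = 0.0421), a call lost in 7 of 10 such fits (adjusted p up to 0.198). Cd244a was at 0.097, 0.115, 0.283, 0.199 and 2.66 CPM after MSCs and at 0.0246 to 0.216 CPM in Sham. Its call (3.10 ± 0.81, adjusted p = 0.0496) rested on MSC replicate 4, without which the difference was 1.12 (adjusted p = 0.651), and it was also lost without Sham replicate 0, 1, 2 or 3 (adjusted p up to 0.155). This mouse had a leukocyte score of 4.55 where the other 4 had 3.73 to 3.83.

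**Figure D5:**
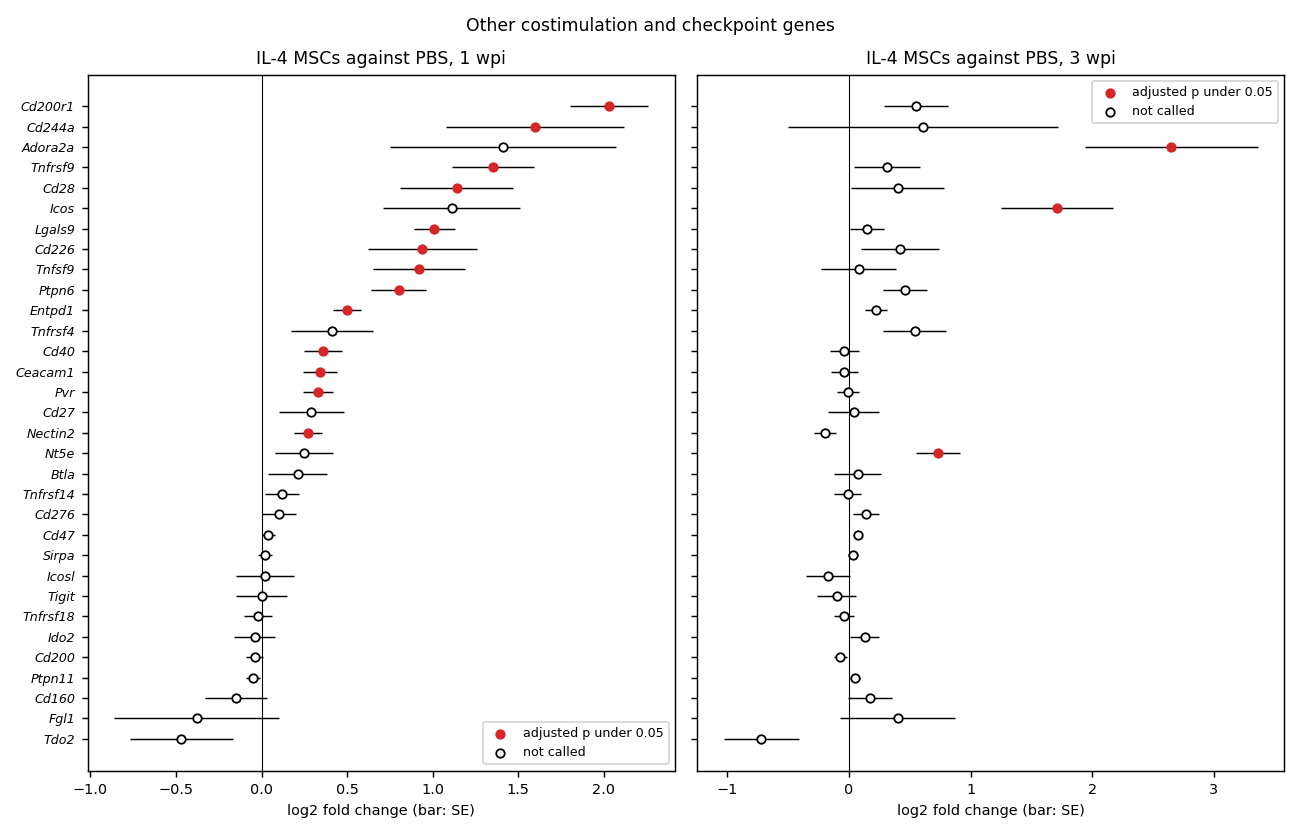
Log2 fold change of IL-4 MSCs against PBS (horizontal axes, bars: SE) at 1 wpi (left) and 3 wpi (right) for the 32 tested genes of the list of other costimulation and checkpoint genes, ordered by their value at 1 wpi. Filled points have an adjusted p under 0.05, which are 13 genes at 1 wpi, led by Cd200r1, and Adora2a, Icos and Nt5e at 3 wpi.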

How the data were processed

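RNA-seq libraries of 34 mice were trimmed by the authors with cutadapt 2.4 and assigned to protein-coding GENCODE vM23 transcripts (GRCm38) with kallisto 0.46, and the authors deposited estimated counts and TPM per gene. No normalization between libraries was applied to the deposited estimated counts. The deposited TPM values are scaled for transcript length within a library. Another 63 columns hold the authors' own comparisons (fold changes and p-values) and were not used. Here the estimated counts were rounded, filtered with filterByExpr, scaled by TMM and tested two-sided with edgeR 4.0.16 (R 4.3.3) in 1 quasi-likelihood fit of all groups, with Benjamini-Hochberg adjustment over the 17131 genes that passed. Ctla4, under the filter, was compared by exact permutation of the mice. The counts of Cd274 and Havcr2 were whole numbers, within 0.01 counts, in 0 of 34 libraries, and those of Lag3 and Cd80 in 1. Gene positions are from GENCODE vM21. Sample titles carry a bracketed number that treated mice share within their group, and what goes with it cannot be told apart from the group.

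The 10 genes and the lists were chosen with earlier results of these data known. All 10 are named with their levels in all groups, and statistics are given for those called and for IL-4 MSCs against PBS and MSCs, and for some other differences that were not called, chosen after their values were seen. Of the other list, up to 6 called genes with the largest change are named in 3 comparisons, with further called genes named where a count was 5 or fewer. For likeness, up to 3 genes with the highest Pearson's r of log2 CPM (prior count 2) are named where given, and 1 such gene is not reported here. Alternatives were RLE size factors, DESeq2 1.42.0, no filter and a stricter one (CPM of at least 1 in 4 libraries), fits of only the groups compared, a replicate block, Sham mice of the same week, a striatum score, a leukocyte score (added after the data were seen) and leaving out each mouse. The replicate numbers of the labels were compared by correlating deviations from the group means. All pairs exceeded 0.1 in 1 of 15 comparisons, PBS at 3 wpi against Sham, so the numbers were not taken to pair mice.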

Additional observations from a re-analysis of the deposited data

Results flagged for a closer look

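Of 70 combinations of gene and group, 5 had a mouse far from the rest by Dixon's test, where chance gives about 1 in 20. The distant values were all the highest of 5, namely Cd274 at 6.94 CPM in MSC replicate 2 at 1 wpi, Pdcd1lg2 at 0.109 CPM in IL-4 MSC replicate 3 at 3 wpi, Pdcd1 at 0.124 CPM in Sham replicate 3 and at 0.575 CPM in MSC replicate 0 at 1 wpi, and Havcr2 at 3.98 CPM in Sham replicate 4. Those of Pdcd1lg2 and of Pdcd1 in Sham rest on 4 counts each.

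The treatment difference changed between 1 and 3 wpi, by a test of the interaction, for Cd274 (1.24) and Pdcd1lg2 (4.49) between IL-4 MSCs and PBS, and for Cd274 (1.43), Pdcd1lg2 (5.45) and Havcr2 (0.79) between IL-4 MSCs and MSCs, each as the log2 difference at 1 wpi minus that at 3 wpi.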

How the results depend on the processing

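Of the 56 differences called for single genes, DESeq2 and the replicate block kept all 56 called in the same direction. RLE size factors and no low-count filter each lost 1 (Havcr2 after IL-4 MSCs at 3 wpi against Sham), fits of only the groups compared lost 6, Sham mice of the same week 6 of 28, and the striatum score 7. The stricter filter removed Pdcd1, and the other 53 were kept. With the leukocyte score 13 kept their call and direction, 40 lost the call and 3 changed sign. Leaving out mice lost the call in 37 of 604 fits and changed no sign. Where not stated in the report, the cause of a changed call was not tested.

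The number of genes called after IL-4 MSCs at 3 wpi against Sham, 5, was 2 with only these groups fitted, 1 with Sham mice of the same week, 1 with the striatum score, 1 with the leukocyte score and 2 to 5 without 1 mouse. The lowest of 2 arose without Sham replicate 0 or 1 or IL-4 MSC replicate 3 or 4, and 3 were called without Sham replicate 2 or IL-4 MSC replicate 0. After MSCs at 3 wpi against Sham, 3, it was 1 with Sham mice of the same week and 0 with the leukocyte score. For IL-4 MSCs against PBS and against MSCs at 3 wpi, 1 each, it was 0 with the striatum score and 0 with only these groups fitted, and 0 to 1 without 1 mouse (0 without PBS replicate 0, adjusted p of Ido1 = 0.0536, and without IL-4 MSC replicate 3, 0.0524). From 1 to 3 wpi after MSCs, 3, it was 1 to 3 without 1 mouse. With the leukocyte score, 0 were called against Sham after PBS and MSCs at 1 wpi and 1 after IL-4 MSCs, 2 and 2 after IL-4 MSCs at 1 wpi against PBS and MSCs, and 0, 0 and 1 from 1 to 3 wpi after PBS, MSCs and IL-4 MSCs. The replicate block gave 4 after MSCs at 3 wpi against Sham, with Pdcd1 added.

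Called differences that changed sign with the leukocyte score were Cd274 after PBS (-0.03) and MSCs (-0.07) and Cd80 after IL-4 MSCs (-0.20), all against Sham at 1 wpi. Uncalled ones that did so were Havcr2 after MSCs at 3 wpi against Sham (-0.06), and at 1 wpi after IL-4 MSCs Cd80 against PBS (-0.09) and Lag3 against MSCs (-0.12). With the striatum score Ido1 after IL-4 MSCs against PBS at 1 wpi was -0.03, and with the replicate block Cd274 after IL-4 MSCs against PBS at 3 wpi was 0.01. Without 1 mouse, 3 uncalled differences near 0 changed sign, Pdcd1 (-0.42 to 0.30) and Lag3 (-0.15 to 0.22) after IL-4 MSCs against MSCs at 1 wpi and Cd274 after IL-4 MSCs against PBS at 3 wpi (-0.07 to 0.12). Mean CPM without TMM moved by less than 1 SD in all 70 group means, and a prior count of 0.5 moved 10 of 70 mean log2 CPM values by more. Depth limits Pdcd1, Ctla4 and, outside IL-4 MSCs at 1 wpi, Pdcd1lg2, whose counts were a few per mouse.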
